A study of Mus musculus with 51 samples.

Results

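The 84 genes described here encode the nuclear subunits of the 5 complexes of oxidative phosphorylation and the electron carrier cytochrome c, measured in mouse blood-forming cells with and without the leukaemia fusion gene Mll-AF9. They were taken by gene symbol alone, as every gene whose symbol begins with Ndufa, Ndufb, Ndufc, Ndufs, Ndufv, Uqcr, Cox4, Cox5, Cox6, Cox7, Cox8 or Atp5, together with Sdha, Sdhb, Sdhc, Sdhd, Cyc1 and Cycs, leaving out the assembly factors named Ndufaf. Of the 18193 genes measured, 84 met this rule: 36 of complex I, 4 of complex II, 9 of complex III, 17 of complex IV, 17 of complex V and the cytochrome c gene Cycs. The complex was assigned by symbol, so that Ndufa4 and its relative Ndufa4l2 are counted in complex I throughout. Each gene was represented by 1 probe set, the one with the highest mean over all arrays, and 50 of the 84 genes had further probe sets.

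The series compared cells carrying an Mll-AF9 knock-in allele with wild-type cells in 4 populations sorted by flow cytometry from mouse bone marrow. By the usual meaning of the names, GMP are progenitors of granulocytes and macrophages, and CMP progenitors of all myeloid cells. CLP are progenitors of lymphocytes, and HSC the stem cells of the blood. The markers of these CMP leaned to the erythroid and megakaryocyte side. Of 12 such markers 8 were higher in CMP than in HSC in each genotype. Of 13 granulocyte and monocyte markers 3 were lower in each, with 0 higher in Mll-AF9 and 1 in wild-type CMP. Mll-AF9, a fusion of the histone methyltransferase gene Mll to AF9, occurs in human acute leukaemias. With Mll-AF9 there were 4 GMP, 4 CMP, 7 CLP and 5 HSC replicates, and the wild-type groups held 5 GMP, 5 CMP, 8 CLP and 5 HSC replicates. Of these 43 replicates, 8 CMP replicates had been run on 2 arrays, which were averaged, so that 51 arrays were used. The age, sex and strain of the mice, the zygosity of the knock-in and whether each replicate was a separate mouse were not stated in the labels, so p-values measure only the spread between these samples. Klf1, an erythroid transcription factor, averaged 11.31 in Mll-AF9 CMP and 11.38 in wild-type CMP on the log2 intensity scale, against 7.41 in Mll-AF9 HSC and 7.69 in wild-type HSC. Mpo, the granule enzyme myeloperoxidase, averaged 13.66 in Mll-AF9 GMP and 13.7 in wild-type GMP, Il7r, the lymphoid interleukin-7 receptor chain, 9.49 in Mll-AF9 CLP and 9.54 in wild-type CLP, and Procr, a stem cell surface receptor, 8.47 in Mll-AF9 HSC and 8.56 in wild-type HSC. Procr was not particular to HSC, averaging 7.62 in Mll-AF9 CLP and 8.58 in wild-type CLP. Mpo averaged 10.62 in Mll-AF9 CMP and 10.86 in wild-type CMP, against 10.84 in Mll-AF9 HSC and 11.51 in wild-type HSC. In CLP it averaged 11.97 (Mll-AF9) and 11.79 (wild type). The lymphoid gene Dntt averaged 11.67 and 12.3 in Mll-AF9 and wild-type CLP, against 10.93 and 11.59 in the HSC. The stem cell gene Slamf1 averaged 5.46 in Mll-AF9 HSC and 4.35 in wild-type HSC, against 5.31 and 4.73 in CMP. Its wild-type HSC mean lay under the detection level of 4.62 defined below. Hlf, another stem cell gene, averaged 10.53 and 10.07 in HSC, against 9.36 and 9.31 in CLP. The source names of 8 arrays titled CLP give another population, and the titles were followed. No level of the fusion transcript itself was used, and Mecom, a transcription factor gene known as a target of Mll fusions, averaged 7.37 in Mll-AF9 GMP and 4.09 in wild-type GMP (limma adjusted p = 0.000114).

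Oxidative phosphorylation takes place in the inner mitochondrial membrane. Complexes I and II pass electrons from NADH and succinate to ubiquinone, complex III passes them on to cytochrome c, complex IV passes them to oxygen, and the proton gradient built up on the way drives complex V, the ATP synthase. Blood stem cells are known for a quiet metabolism that leans on glycolysis, and their progeny for a greater use of mitochondrial respiration.

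A gene was counted as detected in a group where its mean log2 intensity lay above 4.62, which is the 95th percentile over 115 olfactory, taste and vomeronasal receptor and keratin-associated genes, which blood cells are not known to use. By this measure 78 of the 84 genes were detected in all 8 groups. The 5 genes detected in no group were Cox4i2 (group means 3.94 to 4.45), Cox7a1 (2.75 to 3.54), Cox7b2 (2.43 to 3.11), Cox8b (3.94 to 4.44) and Ndufb4 (3.19 to 4.03). Of these, Cox7a1 and Cox8b encode muscle forms of complex IV subunits, Cox4i2 a form best known from lung, and Cox7b2 a form of Cox7b. Ndufb4, of complex I, was read by 1 probe set, whose low signal does not show that the transcript was absent. Ndufa4l2, a relative of Ndufa4 known for induction by hypoxia, had group means of 4.33 to 4.99 and was detected in 3 groups. The detected genes included all 4 of complex II, all 9 of complex III, all 17 of complex V, 34 of 36 of complex I and 13 of 17 of complex IV. The group means of a detected subunit gene spanned a median of 1.23 on the log2 scale, from 0.42 to 2.57, and those of all 8925 genes detected in every group spanned a median of 1.04. Levels of different probe sets cannot be set against each other, so all comparisons below are within a gene.

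**Figure D1:**
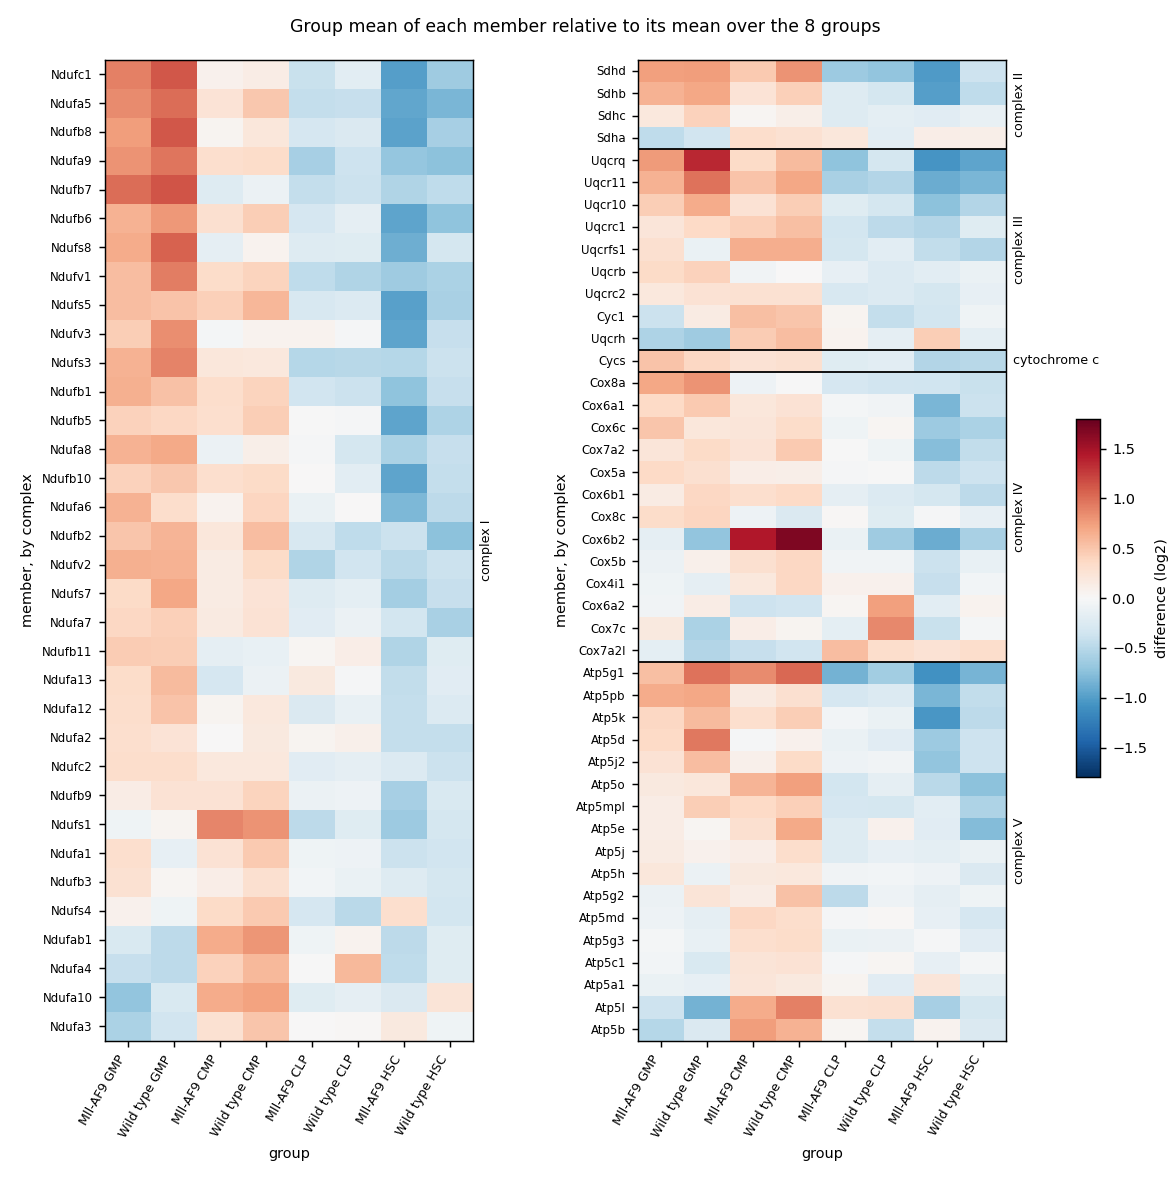
Group means of the 78 genes detected in all 8 groups, as log2 differences from the gene's own mean over the groups, with genes in rows by complex and the groups in columns. Most complex I genes are red in the GMP columns and blue in the HSC columns, Cox6b2 is darkest in the CMP columns, and Cox7a2l is blue in the GMP and CMP columns.

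The subunit genes differed between populations, with their lowest levels mostly in HSC, and none was called between the genotypes within a population. HSC had the lowest mean of the 4 populations for 60 of the 78 detected subunit genes (76.9%) in Mll-AF9 cells and for 52 (66.7%) in wild-type cells, against 31.0% and 27.4% of all 8925 genes detected in every group. The highest mean was in GMP for 47 subunit genes (60.3%) in Mll-AF9 cells, against 37.5% of all detected genes, and for 39 of 78 in wild-type cells, against 40.1%. CMP held the highest mean for 28 (35.9%) in Mll-AF9 cells and 35 (44.9%) in wild-type cells, against 26.8% and 28.8% of all detected genes. In the 4 Mll-AF9 GMP replicates the mean over the 78 genes lay between 10.07 and 10.19, and in the 5 wild-type GMP replicates between 10.03 and 10.29. In Mll-AF9 HSC it lay between 9.24 and 9.63, and in wild-type HSC between 9.11 and 9.82, so that no HSC replicate reached a GMP replicate of its genotype. The CLP replicates, at 9.51 to 9.8 in Mll-AF9 cells and 9.37 to 9.94 in wild-type cells, overlapped the HSC range and lay below every GMP replicate. Among the CMP replicates, Mll-AF9 replicate 3 stood apart at 9.75, against 10.22 for the group's median and 10.16 to 10.39 in wild-type CMP. The 17 CMP arrays carried more decimals than the other 34, so the CMP data may have been normalised separately, and comparisons of CMP with other populations cannot be told apart from that.

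**Figure D2:**
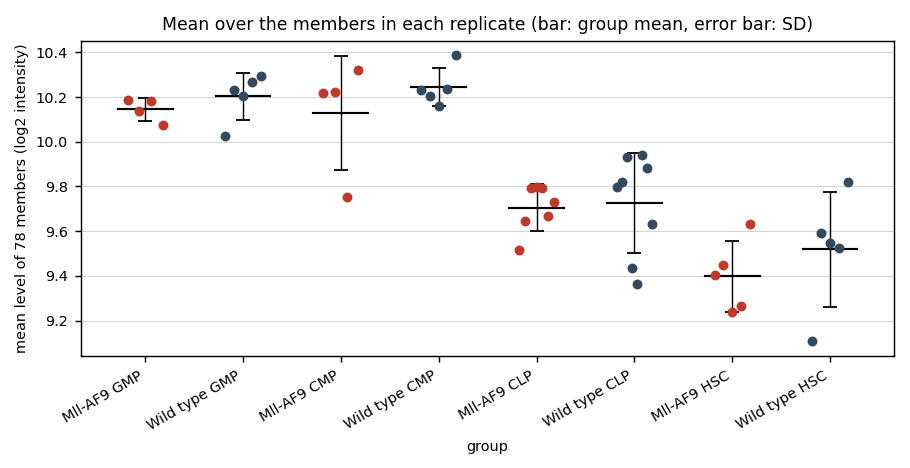
Mean log2 intensity over the 78 detected subunit genes in each replicate, by group, with the group mean as a bar and the SD as the error bar. GMP replicates sit at 10.03 to 10.29 and HSC replicates at 9.11 to 9.82, and Mll-AF9 CMP replicate 3 lies at 9.75.

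Whether Mll-AF9 changed the subunit genes within a population was the first comparison. In GMP, where 0.17% of all genes were called higher and 0.0934% lower in Mll-AF9 cells (limma, Benjamini-Hochberg adjusted p below 0.05 over 18193 genes), 0 of the 84 subunit genes were called. In CMP, with 0.242% of all genes higher and 0.176% lower, 0 of 84 were called. In CLP (0.203% and 0.143%) and in HSC (0.022% and 0.0275%) 0 of 84 were called likewise. At an unadjusted p under 0.05 by limma, 4 subunit genes were higher in Mll-AF9 GMP and 11 were lower, where 9.63% of all genes passed in either direction. The counts were 0 higher and 1 lower in CMP (6.75% of all genes), 4 and 4 in CLP (9.29%), and 2 and 7 in HSC (6.38%). The median log2 difference of the subunit genes (Mll-AF9 minus wild type) was -0.08 for GMP (-0.019 for all genes), -0.10 for CMP (0.002), -0.01 for CLP (0.060) and -0.12 for HSC (0.014). The CMP median turned to 0.028 without Mll-AF9 CMP replicate 3. Leaving out single replicates gave -0.061 to 0.021 in CLP, so that its sign depended on the replicates used, and -0.243 (without wild-type HSC replicate 1) to -0.056 (without wild-type HSC replicate 5) in HSC. Because these are sorted bulk cells, fewer cells of a type and less RNA per cell cannot be told apart.

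A p that misses the threshold does not show that the genotypes had equal levels, so the intervals matter here. The 95% interval of the difference lay within 1 log2 unit of 0, a change of less than 2-fold either way, for 80 of the 84 genes in GMP, all 84 in CMP, 80 in CLP and 71 in HSC. Within 0.5 log2 units it lay for 35, 56, 48 and 11 genes in the same order.

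In GMP the smallest p belonged to Uqcrq, a small subunit of complex III. It measured 9.41, 9.31, 9.2 and 9.42 in Mll-AF9 GMP, against 10.06, 9.72, 9.68, 10.06 and 10.13 in wild-type GMP. The groups did not overlap, and the difference was -0.60 ± 0.15 (SE; 95% interval -0.92 to -0.28), with an adjusted p of 0.158. In Mll-AF9 GMP 7 subunit genes lay wholly below the wild-type replicates, as did 2.12% of all genes. Atp5d, the delta subunit of the ATP synthase stalk, was another of these, at -0.60 ± 0.18 (adjusted p = 0.263), and Ndufb8, a subunit of the membrane arm of complex I, differed by -0.37 ± 0.11 (adjusted p = 0.283). Cox7c, a small subunit of complex IV, measured 7.36, 7.97, 7.68 and 7.74 in Mll-AF9 GMP, against 6.38, 7.31, 7.43, 6.97 and 6.63 in wild-type GMP, with 1 wild-type replicate above the lowest Mll-AF9 one (0.74 ± 0.23, adjusted p = 0.282). Cox7a2l differed by 0.36 ± 0.12 (adjusted p = 0.336).

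In CLP the smallest p was that of Ndufa4, which differed by -0.59 ± 0.18 with overlapping groups (adjusted p = 0.264). Ndufa4 was first assigned to complex I, where it is counted here by its symbol, and is now assigned to complex IV. Cyc1, which encodes cytochrome c1 of complex III, differed by 0.48 ± 0.15 (adjusted p = 0.308). In complex IV, Cox6a2 differed by -0.70 ± 0.25 (adjusted p = 0.379) and Cox7c by -1.04 ± 0.43 (adjusted p = 0.453), and Cox7b2, not detected in either group, by -0.28 ± 0.11 (adjusted p = 0.446). The 7 Mll-AF9 CLP replicates of Cox7c ranged from 5.53 to 8.57, and the 8 wild-type CLP replicates from 6.63 to 9.48. In HSC the leading genes were Ndufs8, an iron-sulphur core subunit of complex I (-0.57 ± 0.21, adjusted p = 0.684), Cox6a1 (-0.44 ± 0.17, adjusted p = 0.684), Ndufb10 (-0.53 ± 0.20, adjusted p = 0.691), Uqcrh (0.61 ± 0.26, adjusted p = 0.769) and Atp5k (-0.57 ± 0.25, adjusted p = 0.769). In CMP they were Sdhd (-0.33 ± 0.15, adjusted p = 0.719), Ndufa1 (-0.20 ± 0.10), Ndufa3 (-0.22 ± 0.13), Ndufb2 (-0.36 ± 0.22) and Atp5e (-0.40 ± 0.26, adjusted p = 0.884). None of these 5 was called, and without Mll-AF9 CMP replicate 3 the difference of Ndufb2 was -0.056 and that of Atp5e -0.085.

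**Figure D3:**
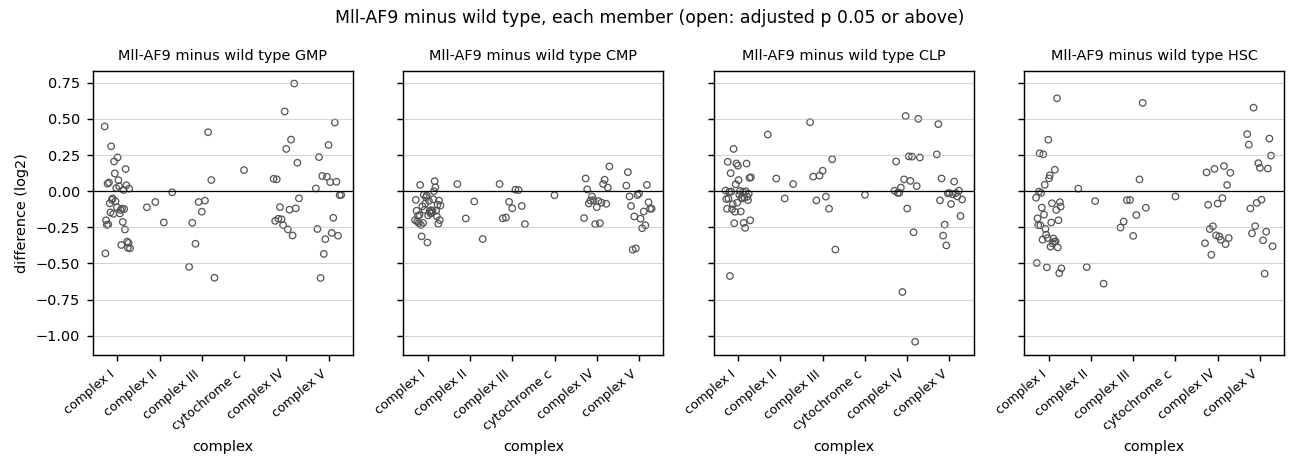
Difference of each of the 84 genes, Mll-AF9 minus wild type (log2), in the 4 populations, by complex. All points are open because none was called, and the spread is narrowest in CMP, from -0.40 to 0.17.

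The genotype effect was also compared between populations, as the difference of 2 differences in a model of all 8 groups. None of the 84 genes was called in any of the 6 such comparisons (limma), for which the share of all genes called higher and lower was 0.0275% and 0.0385% for GMP minus CLP, 0.0275% and 0.0165% for GMP minus HSC, 0.044% and 0.022% for CMP minus CLP, 0.11% and 0.033% for CLP minus HSC, and 0 for GMP minus CMP and CMP minus HSC. At an unadjusted p under 0.05 the comparison of CLP with HSC held 9 subunit genes higher and 2 lower, where 9.6% of all genes passed in either direction, and the other 5 comparisons held at most 3 in a direction (1.84% to 10.1% of all genes). Cyc1 had the smallest p between GMP and CLP, where the effect in GMP minus that in CLP had an adjusted p of 0.263. Cox7c ran the other way (1.79 ± 0.63, adjusted p = 0.346). Y-linked transcripts were found in 0 replicates of each Mll-AF9 group, against 3 of the 5 GMP replicates, 3 of the 5 CMP, 6 of the 8 CLP and 2 of the 5 HSC replicates of the wild type. Read from these transcripts, no Mll-AF9 replicate was male, so the genotype comparisons partly mix genotype with sex. With these transcripts' mean level added as a covariate, 0 subunit genes were called in any of the 4 populations.

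The progenitors were next compared with the HSC of their own genotype, which serve all comparisons of that genotype. Each fit held every group of the genotype, so the SE and p of GMP and CLP comparisons also drew on the CMP replicates. In Mll-AF9 GMP 52 of 84 subunit genes were higher than in Mll-AF9 HSC and 3 lower (18.4% and 11.7% of all genes). In wild-type GMP 54 were higher than in wild-type HSC and 3 lower (25.3% and 13.9% of all genes). In both groups the brighter group was above background for 50 of the genes called higher. The median difference was 0.73 in Mll-AF9 and 0.69 in wild-type cells, against 0.104 and 0.142 for all genes. Non-overlapping replicates, higher in GMP, were seen for 47 subunit genes in Mll-AF9 cells and 45 in wild-type cells, against 16.1% and 15.2% of all genes. Of the genes called higher, 48 were shared, 92.3% of the Mll-AF9 list and 88.9% of the wild-type list.

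In complex I the 2 genotypes gave the same counts. Of its 36 genes 28 were higher and 1 lower in Mll-AF9 GMP (median 0.98), and 28 were higher and 1 lower in wild-type GMP (median 0.92). Both counts of higher genes include Ndufb4, which was detected in no group. Ndufa5, an accessory subunit of the matrix arm of complex I, measured 10.51, 10.59, 10.74 and 10.7 in Mll-AF9 GMP, against 8.61, 9.51, 8.68, 8.62 and 8.84 in Mll-AF9 HSC. In wild-type GMP it measured 10.78, 10.54, 10.73, 10.93 and 10.91, against 8.72, 8.8, 8.99, 8.82 and 9.5 in wild-type HSC. Every GMP replicate was above every HSC replicate of its genotype. The difference was 1.78 ± 0.26 in Mll-AF9 cells (3.44-fold, adjusted p = 1.41e-05) and 1.82 ± 0.15 in wild-type cells (3.52-fold, adjusted p = 7.39e-10). Ndufc1, a small subunit of the membrane arm, measured 11.19, 11.24, 11.13 and 10.98 in Mll-AF9 GMP, against 9.25, 9.24, 8.88, 8.79 and 10.01 in Mll-AF9 HSC. It was 1.90 ± 0.22 higher in Mll-AF9 GMP (adjusted p = 5.45e-07) and 1.76 ± 0.19 higher in wild-type GMP (adjusted p = 8.88e-08), with no overlap in either.

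Further complex I genes, from both arms of the complex, were higher in GMP. Ndufb8 was 1.71 ± 0.25 higher in Mll-AF9 GMP and 1.72 ± 0.16 higher in wild-type GMP, and Ndufa9, a subunit at the junction of the 2 arms, 1.503 ± 0.27 and 1.70 ± 0.27 higher. Ndufv1, which carries the flavin that takes electrons from NADH, was 1.21 ± 0.17 higher in Mll-AF9 GMP (adjusted p = 1.05e-05) and 1.49 ± 0.19 higher in wild-type GMP (adjusted p = 8.48e-07). The core subunits Ndufs3, Ndufs7 and Ndufs8 were called higher in both genotypes, by 1.15 ± 0.19, 0.96 ± 0.20 and 1.55 ± 0.22 in Mll-AF9 GMP and by 1.29 ± 0.20, 1.11 ± 0.12 and 1.37 ± 0.18 in wild-type GMP. Ndufs1, the largest of the iron-sulphur subunits, was not called (0.58 ± 0.30 and 0.36 ± 0.22). Ndufa3 was lower in Mll-AF9 GMP (-0.75 ± 0.17, adjusted p = 0.00135), and Ndufa10 lower in wild-type GMP (-0.52 ± 0.18, adjusted p = 0.0282), though its replicates overlapped and the call was lost in 5 of 18 alternatives.

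Complex II, which is also the citrate cycle's succinate dehydrogenase, had 4 genes, of which 2 were higher in Mll-AF9 GMP and 0 lower, and 3 were higher in wild-type GMP and 1 lower. The iron-sulphur subunit Sdhb measured 10.48, 10.33, 10.47 and 10.42 in Mll-AF9 GMP, against 8.9, 8.56, 9.18, 8.67 and 8.75 in Mll-AF9 HSC. The wild-type values were 10.29, 10.68, 10.67, 10.27 and 10.59 in GMP, against 8.28, 9.74, 9.53, 9.11 and 10.05 in HSC. No replicate overlapped in either genotype, and the difference was 1.61 ± 0.17 (adjusted p = 2.06e-07) and 1.16 ± 0.25 (adjusted p = 0.000727). The membrane anchor subunit Sdhd was 1.76 ± 0.32 higher in Mll-AF9 GMP (adjusted p = 0.000193) and 1.12 ± 0.35 higher in wild-type GMP (adjusted p = 0.0124), where 1 GMP replicate at 7.49 fell among HSC replicates of 6.67 to 8.69. The other anchor, Sdhc, was called in wild-type cells (0.55 ± 0.18, adjusted p = 0.0194) and not in Mll-AF9 cells (0.40 ± 0.21, adjusted p = 0.153). Sdha, the flavin-bearing subunit, went the other way at its chosen probe set, by -0.58 ± 0.22 in Mll-AF9 GMP (adjusted p = 0.0541) and by -0.45 ± 0.17 in wild-type GMP (adjusted p = 0.0426), with overlap in both. A second Sdha probe set was higher by 0.83 in Mll-AF9 GMP and by 1.08 in wild-type GMP, both called, so no direction can be given for Sdha.

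Of the 9 genes of complex III, 7 were higher in Mll-AF9 GMP and 1 lower (median 0.74), and 5 were higher in wild-type GMP and 0 lower (median 0.54). Uqcrq measured 9.41, 9.31, 9.2 and 9.42 in Mll-AF9 GMP, against 7.32, 7.92, 7.12, 7.26 and 7.94 in Mll-AF9 HSC. In wild-type HSC it measured 7.0, 7.75, 7.64, 7.54 and 8.2, below all 5 wild-type GMP values given above. It was the subunit gene with the largest called difference in wild-type GMP, 2.31 ± 0.26 (4.94-fold, adjusted p = 1.11e-07), and was 1.82 ± 0.25 higher in Mll-AF9 GMP (3.53-fold, adjusted p = 6.15e-06). Uqcr11, another small subunit of the complex, was 1.51 ± 0.21 higher in Mll-AF9 GMP and 1.81 ± 0.22 higher in wild-type GMP, with no overlap. The core protein Uqcrc2 was 0.51 ± 0.13 and 0.41 ± 0.11 higher, both called. Uqcrh, the hinge protein that helps cytochrome c dock, was lower in Mll-AF9 GMP (-0.996 ± 0.20, adjusted p = 0.000502) with no overlap, although a second probe set of the gene differed by 0.17 and was not called. Cyc1 was called in neither genotype (-0.05 ± 0.21 and 0.22 ± 0.25). Cytochrome c itself, Cycs, measured 12.38, 12.49, 12.44 and 12.05 in Mll-AF9 GMP, against 11.44, 10.75, 11.15, 11.34 and 11.79 in Mll-AF9 HSC. It was 1.05 ± 0.16 higher in Mll-AF9 GMP (adjusted p = 3.51e-05) and 0.86 ± 0.15 higher in wild-type GMP (adjusted p = 7.43e-05), with no overlap in either.

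Complexes IV and V had lower medians. In complex IV 7 of 17 genes were higher and 1 lower in Mll-AF9 GMP (median 0.48), and 9 higher and 1 lower in wild-type GMP (median 0.51). The Mll-AF9 call of Cox7a1 and 3 of the wild-type calls (Cox4i2, Cox7a1 and Cox7b2) concerned genes not detected in either group. In complex V 7 of 17 were higher in Mll-AF9 GMP (median 0.32) and 8 in wild-type GMP (median 0.31), none lower. Among the ATP synthase genes, Atp5d was 1.01 ± 0.17 and 1.32 ± 0.19 higher, and Atp5pb, the b subunit of the stator, 1.495 ± 0.18 and 1.14 ± 0.15 higher, both called in both genotypes. The catalytic beta subunit Atp5b (-0.57 ± 0.25 and 0.01 ± 0.29) and the alpha subunit Atp5a1 (-0.34 ± 0.13 and 0.04 ± 0.19) were called in neither.

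**Figure D4:**
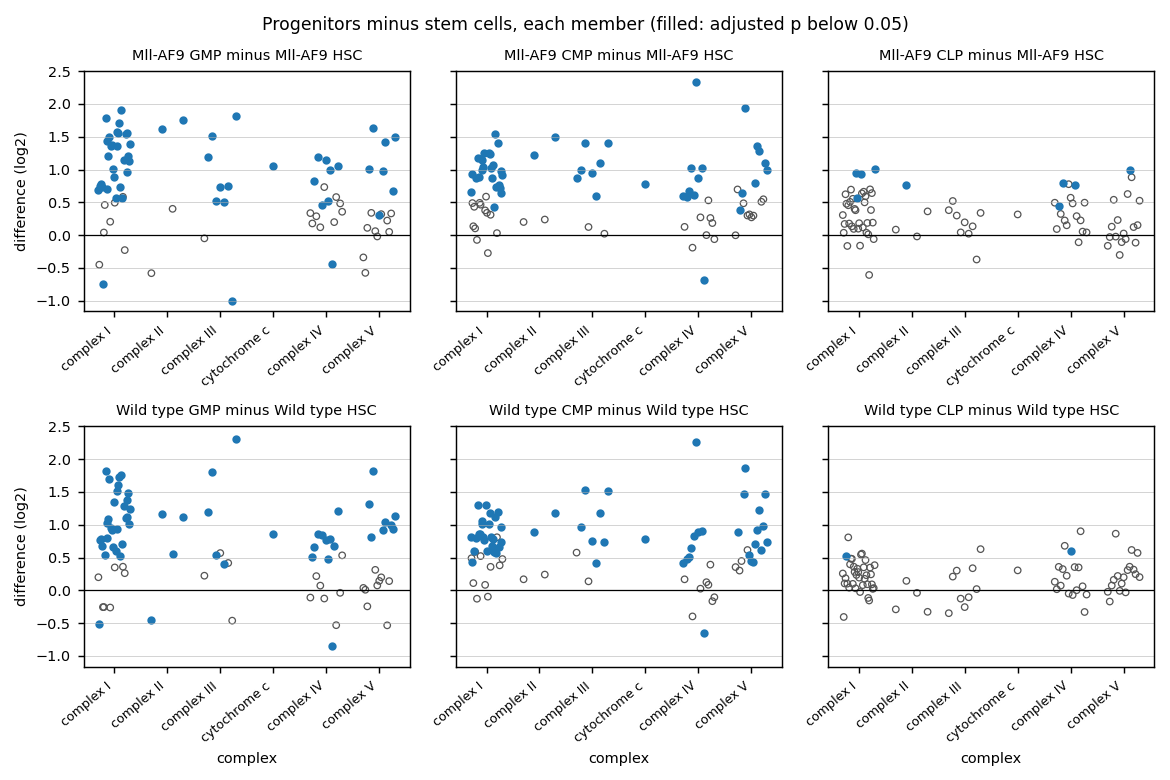
Difference of each gene between a progenitor population and the HSC of the same genotype (log2), by complex, with filled points for an adjusted p below 0.05. Most complex I points are filled and above 0 in the GMP and CMP panels, and few are filled in the CLP panels.

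In CMP 49 of 84 subunit genes were higher and 1 lower than in HSC in Mll-AF9 cells (10.3% and 9.42% of all genes), and 56 were higher and 1 lower in wild-type cells (11.4% and 10.9%). All those called were detected in CMP or HSC. The median difference was 0.64 in Mll-AF9 and 0.66 in wild-type cells, and that of all genes -0.008 and 0.007. With each replicate centred on its median over all genes, these became 0.76 and 0.77 for the subunit genes and 0.103 and 0.116 for all genes, and the split of all genes called became 2405 higher and 1413 lower in Mll-AF9 cells (1867 and 1713 before) and 2908 and 1665 in wild-type cells (2076 and 1983 before). Non-overlap, higher in CMP, was seen for 23 and 51 genes, against 9.05% and 11.1% of all genes. Without Mll-AF9 CMP replicate 3, whose subunit levels were low, 57 genes were higher and 1 lower in Mll-AF9 CMP. The 2 lists of higher genes shared 43, 87.8% of the Mll-AF9 list and 76.8% of the wild-type list. Of complex I 23 of 36 genes were higher in Mll-AF9 CMP (median 0.75) and 25 in wild-type CMP (median 0.75), and of complex V 8 of 17 (median 0.55) and 13 of 17 (median 0.71). Ndufs1, not called in GMP, was 1.54 ± 0.30 higher in Mll-AF9 CMP (adjusted p = 0.000568) and 1.12 ± 0.22 higher in wild-type CMP (adjusted p = 0.00034). Ndufa5 measured 10.09, 10.37, 9.24 and 10.42 in Mll-AF9 CMP, and the replicate at 9.24 lay below the highest Mll-AF9 HSC replicate. It was 1.18 ± 0.26 higher in Mll-AF9 CMP (adjusted p = 0.00193), and 1.30 ± 0.15 higher without overlap in wild-type CMP (adjusted p = 2.11e-07). Atp5e, the epsilon subunit of the stalk, was 1.47 ± 0.28 higher in wild-type CMP (adjusted p = 0.000247) and not called in Mll-AF9 CMP (0.49 ± 0.28). The second arrays of the 8 repeated replicates gave subunit levels below the first by a median of up to 0.23, in 7 of 8 replicates, while the median over all genes differed between runs by at most 0.039.

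Few subunit genes were called between CLP and HSC, and 0 of 10 stem cell markers were called lower in CLP in either genotype, while 4 of 12 lymphoid progenitor markers were higher in Mll-AF9 CLP and 7 in wild-type CLP. In Mll-AF9 CLP 9 of 84 subunit genes were higher and 0 lower (1.6% and 0.5% of all genes), and in wild-type CLP 2 were higher and 0 lower (0.308% and 0.0989%). The median difference was 0.26 in Mll-AF9 and 0.20 in wild-type cells, against 0.040 and -0.007 over all genes. Median centring gave 0.16 in Mll-AF9 cells, against -0.060 over all genes, and turned the genes called from 291 higher and 91 lower to 185 higher and 200 lower. The wild-type median was 0.085 without wild-type HSC replicate 1 and 0.123 with the replicate block. At an unadjusted p under 0.05 by limma, 34 were higher and 2 lower in Mll-AF9 CLP, where 17.5% of all genes passed in either direction, and 24 and 2 in wild-type CLP (10.6%). The 9 genes in Mll-AF9 cells were Ndufv3 (1.01 ± 0.24), Atp5k (1.00 ± 0.22), Ndufb10 (0.95 ± 0.23), Ndufb5 (0.93 ± 0.19), Cox6a1 (0.79 ± 0.17), Cox7a2 (0.76 ± 0.19), Sdhb (0.76 ± 0.15, adjusted p = 0.00901), Ndufb11 (0.57) and Cox5a (0.44). Wild-type CLP were higher for Cox6c (0.60 ± 0.12, adjusted p = 0.0187) and Ndufa2 (0.53 ± 0.12, adjusted p = 0.0465), so the lists shared no gene. These counts depended on single replicates: without Mll-AF9 HSC replicate 5 Mll-AF9 CLP had 23 higher and 1 lower, and without Mll-AF9 HSC replicate 2, 3 or 4 they had 5, 3 and 2 higher. Wild-type CLP had 0 higher without wild-type HSC replicate 3 or 4, and 5 without wild-type HSC replicate 5 or wild-type CLP replicate 5. With the 3'-to-5' difference of control probe sets as a covariate, which ran from 3.68 to 4.93 in Mll-AF9 CLP and from 3.16 to 4.27 in Mll-AF9 HSC, Mll-AF9 CLP had 0.

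GMP and CMP were also compared directly, as a comparison chosen after the data were seen. In Mll-AF9 cells 8 of 84 genes were higher in GMP and 11 lower (11.8% and 8.18% of all genes), and in wild-type cells 23 were higher and 14 lower (21.2% and 11.6%). Under median centring the counts were 3 higher and 16 lower in Mll-AF9 cells and 14 and 23 in wild-type cells, and those of all genes 1403 and 2121 in Mll-AF9 cells (2141 and 1488 before centring) and 2132 and 2998 in wild-type cells (3860 and 2105 before), so no overall direction is given. Without Mll-AF9 CMP replicate 3 the Mll-AF9 count of higher genes was 4. The membrane-arm subunit Ndufb7 was higher in GMP in both genotypes (1.24 ± 0.23 and 1.24 ± 0.21), with 11.89, 12.03, 11.8 and 11.98 in Mll-AF9 GMP against 10.96, 10.83, 10.15 and 10.79 in Mll-AF9 CMP. Ndufs8 was 0.83 ± 0.23 and 0.99 ± 0.18 higher. Ndufa10 was lower in GMP (-1.38 ± 0.21 and -1.01 ± 0.18), as were Ndufab1, the mitochondrial acyl carrier protein (-0.93 ± 0.23 and -1.27 ± 0.25), and the ATP synthase membrane subunit Atp5l (-1.05 ± 0.31 and -1.76 ± 0.32). In wild-type cells GMP had 52 subunit genes higher and 6 lower than CLP (29.3% and 15.1% of all genes), with a median of 0.52 against 0.15 for all genes. Cox7c was lower in wild-type GMP than in wild-type CLP (-1.43 ± 0.44), as was Ndufa4 (-1.06 ± 0.19).

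Complexes IV and V have tissue forms and paralogous genes, and not all forms of a subunit were called. The 3 genes Atp5g1, Atp5g2 and Atp5g3 encode the same mature c subunit of the ATP synthase ring behind different import signals. Atp5g1 measured 8.9, 8.72, 8.85 and 8.24 in Mll-AF9 GMP, against 7.05, 7.94, 6.69, 6.91 and 6.65 in Mll-AF9 HSC. The wild-type values were 8.91, 9.07, 9.16, 9.1 and 9.32 in GMP, against 6.45, 7.36, 7.71, 7.04 and 7.9 in HSC. Neither pair overlapped. Atp5g1 was called higher in all 4 comparisons, by 1.63 ± 0.25 in Mll-AF9 GMP, 1.82 ± 0.25 in wild-type GMP, 1.94 ± 0.25 in Mll-AF9 CMP and 1.87 ± 0.25 in wild-type CMP, whereas Atp5g2 was called in none (0.06 ± 0.29, 0.31 ± 0.23, 0.30 ± 0.29 and 0.61 ± 0.23) and Atp5g3 in wild-type CMP alone (0.54 ± 0.17, adjusted p = 0.0224). Whether the 3 genes differed from one another in response was not tested.

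Among the complex IV pairs, Cox6b1, the widespread form of subunit VIb, was called higher in all 4 (0.45 ± 0.15 in Mll-AF9 GMP, 0.84 ± 0.13 in wild-type GMP, 0.61 ± 0.15 in Mll-AF9 CMP and 0.82 ± 0.13 in wild-type CMP). Its call in Mll-AF9 GMP was lost in 8 of 17 alternatives. Cox6b2, the form described in testis, did not follow Cox6b1. It measured 7.91, 7.92, 6.84 and 8.03 in Mll-AF9 CMP, against 6.1, 4.96, 4.17, 5.71 and 5.73 in Mll-AF9 HSC. In wild-type CMP it measured 7.79, 7.61, 7.86, 7.98 and 8.28, against 5.21, 5.43, 5.88, 5.65 and 6.03 in wild-type HSC. All CMP replicates lay above all HSC replicates of their genotype, by 2.34 ± 0.30 in Mll-AF9 cells (5.06-fold, adjusted p = 7.4e-06) and 2.26 ± 0.35 in wild-type cells (4.8-fold, adjusted p = 1.96e-05). In GMP it was not called against HSC (0.73 ± 0.30 and -0.12 ± 0.35), and GMP minus CMP was -1.61 ± 0.32 in Mll-AF9 and -2.39 ± 0.35 in wild-type cells, both called lower. Cox6a1 and Cox7a2, the widespread forms, were called higher in all 4 comparisons (0.65 to 1.18 and 0.79 to 1.03), Cox6a2 and Cox8c in none. Cox8a was called in both GMP comparisons (1.06 ± 0.21 and 1.22 ± 0.18) and neither CMP one (0.26 ± 0.21 and 0.39 ± 0.18). Cox4i1, the widespread form of subunit IV, was called in CMP alone (0.60 ± 0.17 in Mll-AF9 and 0.42 ± 0.15 in wild-type cells), and the wild-type call was lost in 10 of 20 alternatives. Ndufa4 was also called in CMP alone (0.87 ± 0.25 and 0.80 ± 0.21), with overlapping replicates.

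Cox7a2l, which joins complexes III and IV into supercomplexes, was lower in GMP and CMP than in HSC. In GMP it was the only subunit gene called lower in both genotypes, and in CMP the only one called lower at all. It measured 11.76, 11.65, 11.83 and 11.91 in Mll-AF9 GMP and 11.55, 11.73, 11.1 and 11.77 in Mll-AF9 CMP, against 12.06, 12.56, 12.04, 12.13 and 12.34 in Mll-AF9 HSC. In wild-type GMP it measured 11.27, 11.67, 11.24, 11.57 and 11.41, and in wild-type CMP 11.51, 11.6, 11.72, 11.69 and 11.57, against 12.21, 12.67, 11.95, 12.12 and 12.42 in wild-type HSC. No HSC replicate overlapped the GMP or CMP of its genotype. The CLP, at 12.19 to 12.81 in Mll-AF9 and 11.81 to 12.67 in wild-type cells, overlapped the HSC. The differences were -0.44 ± 0.14 in Mll-AF9 GMP (adjusted p = 0.0241, lost in 7 of 17 alternatives), -0.84 ± 0.14 in wild-type GMP (adjusted p = 3.77e-05), -0.69 ± 0.14 in Mll-AF9 CMP (adjusted p = 0.00129) and -0.65 ± 0.14 in wild-type CMP (adjusted p = 0.000983). A second probe set, called in all 4, gave -0.60, -0.89, -0.70 and -0.60 in the same order, and the other one was called in none.

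**Figure D5:**
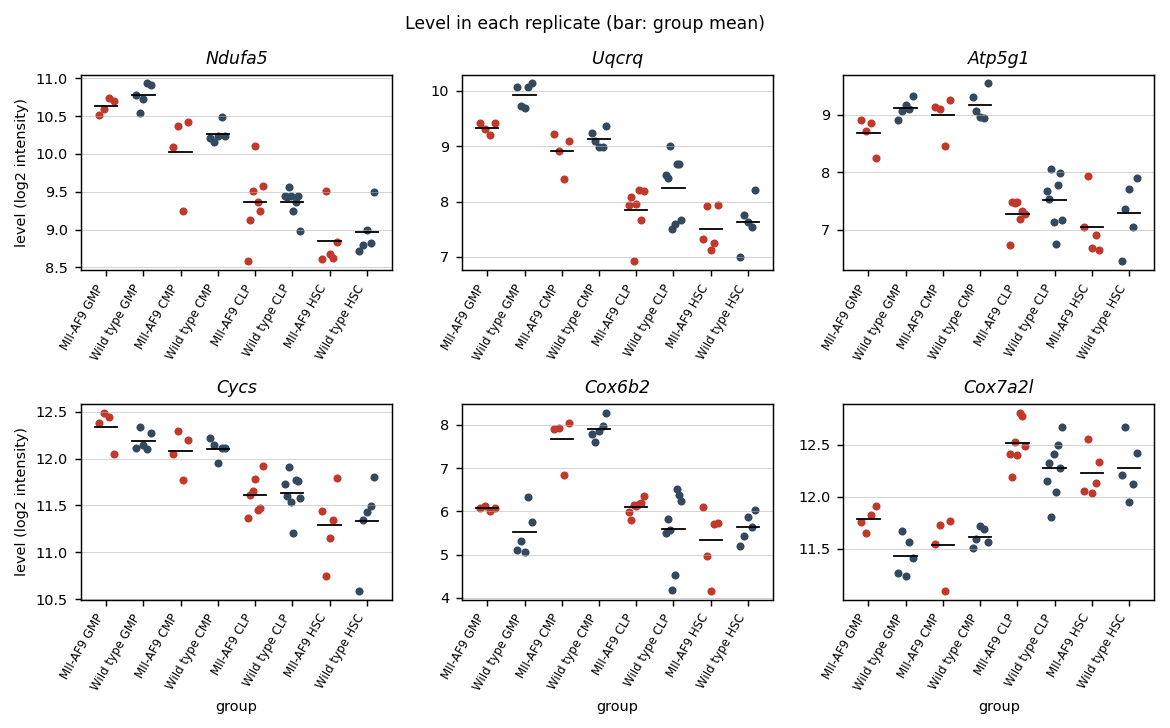
Log2 intensity of Ndufa5, Uqcrq, Atp5g1, Cycs, Cox6b2 and Cox7a2l in every replicate of the 8 groups, with the group mean as a bar. In the HSC columns the first 4 genes are low and Cox7a2l is high, and Cox6b2 stands high in the CMP columns, at 6.84 to 8.28.

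Subunit promoters are known to share sites for NRF1, ETS-family factors such as GABP, and YY1, and 68 of the 84 genes had a promoter entry in RefSeq (mouse build GRCm38.p6), giving 73 windows of 300 bases from 250 before the transcript start to 50 after it. The motifs gcgca, any base and gcgc for NRF1, ccggaag for ETS factors and aagatggcg for YY1 were searched on both strands. NRF1 was found in 21.9% of the subunit windows, ETS in 23.3% and YY1 in 8.22%, against 7.43%, 13% and 2.09% of the 18109 promoters of all genes measured here and 4.6%, 8.86% and 1.4% of all 32851 mouse promoters. A window with any of the 3 motifs made up 46.6% of the subunit windows and 20.3% of the promoters of all genes measured here. The 47 windows of genes higher in wild-type GMP than in wild-type HSC held any motif in 48.9%, and the other 26 in 42.3%. A match describes the letters of the window only. Among the genes whose windows held none of the 3 motifs were Atp5g1, Ndufb8, Ndufv1 and Cycs, all higher in GMP. Below, 3 promoters of genes higher in GMP are shown, each with a different motif. They are set beside those of Cox6b2, high in CMP, and Cox7a2l, low in GMP and CMP, neither of which holds a motif. Capitals mark the motif, and each is written 5′ to 3′ along the gene's strand, which is minus for all 5: Ndufa5, chr6:24527477-24527776, with an NRF1 motif, and 1 of 2 promoters of the gene. Uqcr11, chr10:80406772-80407071, holds an ETS motif, and Ndufc1, chr3:51408906-51409205, a YY1 motif. Cox6b2 lies at chr7:4753045-4753344 and Cox7a2l at chr17:83514284-83514583.
Ndufa5: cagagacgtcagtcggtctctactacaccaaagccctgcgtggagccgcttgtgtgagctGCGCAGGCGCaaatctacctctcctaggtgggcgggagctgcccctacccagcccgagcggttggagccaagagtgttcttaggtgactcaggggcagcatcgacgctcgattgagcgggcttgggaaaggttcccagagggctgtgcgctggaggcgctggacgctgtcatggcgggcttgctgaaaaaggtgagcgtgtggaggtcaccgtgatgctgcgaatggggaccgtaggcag
Uqcr11: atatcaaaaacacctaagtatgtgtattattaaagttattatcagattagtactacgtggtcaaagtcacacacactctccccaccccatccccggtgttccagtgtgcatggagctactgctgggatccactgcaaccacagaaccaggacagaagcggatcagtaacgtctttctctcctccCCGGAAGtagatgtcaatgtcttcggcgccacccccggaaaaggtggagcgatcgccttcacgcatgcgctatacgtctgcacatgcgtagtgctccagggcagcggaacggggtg
Ndufc1: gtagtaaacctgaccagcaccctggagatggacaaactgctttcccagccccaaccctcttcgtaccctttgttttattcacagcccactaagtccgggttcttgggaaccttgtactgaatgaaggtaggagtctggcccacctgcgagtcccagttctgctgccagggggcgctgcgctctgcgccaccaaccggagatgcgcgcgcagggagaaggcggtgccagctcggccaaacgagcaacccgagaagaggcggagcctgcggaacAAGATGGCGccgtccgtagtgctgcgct
Cox6b2: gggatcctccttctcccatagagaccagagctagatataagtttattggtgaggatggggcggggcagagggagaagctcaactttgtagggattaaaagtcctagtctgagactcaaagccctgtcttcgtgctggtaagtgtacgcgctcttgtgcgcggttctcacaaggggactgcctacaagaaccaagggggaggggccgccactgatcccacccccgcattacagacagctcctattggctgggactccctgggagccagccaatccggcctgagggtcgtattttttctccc
Cox7a2l: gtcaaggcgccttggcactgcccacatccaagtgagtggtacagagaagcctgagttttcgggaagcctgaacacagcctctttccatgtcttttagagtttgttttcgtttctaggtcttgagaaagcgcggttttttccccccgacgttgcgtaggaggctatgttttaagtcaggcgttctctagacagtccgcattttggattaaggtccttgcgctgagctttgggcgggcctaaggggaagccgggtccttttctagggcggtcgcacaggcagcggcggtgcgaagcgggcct

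Other mitochondrial genes were read from lists of named genes, set beside the shares of all genes called in the same comparisons: 18.4% higher and 11.7% lower in Mll-AF9 GMP, 25.3% and 13.9% in wild-type GMP, 10.3% and 9.42% in Mll-AF9 CMP, and 11.4% and 10.9% in wild-type CMP. The mitochondrial ribosome, which makes the subunits encoded by mitochondrial DNA, had, of its 76 genes, 54 higher in Mll-AF9 GMP than in Mll-AF9 HSC and 1 lower (median 0.95), and 58 higher and 0 lower in wild-type GMP (median 1.03). It had 57 higher and 0 lower in both CMP comparisons. Mrpl58, a ribosome subunit gene, was 2.43 ± 0.27 higher in Mll-AF9 GMP (adjusted p = 3.64e-07) and 2.64 ± 0.31 higher in wild-type GMP (adjusted p = 2.07e-07). Of 45 assembly factor genes 22 were higher and 0 lower in Mll-AF9 GMP, and 25 and 1 in wild-type GMP, led in wild-type cells by Coa3, a factor for complex IV (1.85 ± 0.27). Of 18 citrate cycle genes 9 were higher and 1 lower in Mll-AF9 GMP, and 7 and 0 in wild-type GMP. The fumarase gene Fh1 was 1.30 ± 0.19 and 1.16 ± 0.22 higher. Mpc1, a subunit of the pyruvate carrier, was 2.31 ± 0.28 higher in Mll-AF9 GMP and 1.79 ± 0.24 higher in wild-type GMP. In 18 hypoxia-regulated genes, 7 were higher and 2 lower in Mll-AF9 GMP, and 7 and 1 in wild-type GMP. In CMP 1 was higher and 6 lower in Mll-AF9 cells and 3 higher and 5 lower in wild-type cells, among them the glucose transporter gene Slc2a1 (-2.06 ± 0.24 and -2.06 ± 0.29). Of 23 regulators of mitochondrial biogenesis 3 were higher and 3 lower in Mll-AF9 GMP, and 3 and 7 in wild-type GMP. In CMP 6 of them were higher and 1 lower in Mll-AF9 cells, and 5 and 1 in wild-type cells. Sirt3, a mitochondrial deacetylase, was lower in all 4 comparisons (-1.28 ± 0.26 in Mll-AF9 GMP, -1.45 ± 0.23 in wild-type GMP, -1.76 ± 0.26 in Mll-AF9 CMP and -1.95 ± 0.23 in wild-type CMP), and Polrmt, the mitochondrial RNA polymerase, was higher (1.26 ± 0.25, 1.82 ± 0.26, 0.88 ± 0.25 and 1.21 ± 0.26). None of these lists held a gene called between Mll-AF9 and wild type in any population (limma).

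The lists of lineage markers moved with the same comparisons. Of 13 granulocyte and monocyte markers 7 were higher in GMP than in HSC in each genotype, and the mean of the list ran from 9.59 to 10.23 over Mll-AF9 GMP and 9.6 to 10.41 over wild-type GMP, against 5.98 to 8.74 over Mll-AF9 HSC and 7.25 to 8.54 over wild-type HSC. Of 12 erythroid and megakaryocyte markers 8 were higher in CMP than in HSC in each genotype, with list means of 8.57 to 8.72 in Mll-AF9 CMP and 8.25 to 9.04 in wild-type CMP, against 6.42 to 7.72 in Mll-AF9 HSC and 6.5 to 7.33 in wild-type HSC. In the same CMP comparisons the granulocyte and monocyte markers had 0 higher and 3 lower in Mll-AF9 CMP (median -0.80) and 1 higher and 3 lower in wild-type CMP (median -0.65), and 6 of 10 stem cell markers were lower in each genotype. Of 10 stem cell markers 9 were lower in Mll-AF9 GMP and 8 in wild-type GMP. The 3'-to-5' difference of control probe sets, a measure of how far labelling reached along transcripts in 2-cycle amplification, ran from 2.74 to 3.18 in Mll-AF9 GMP and 2.59 to 4.7 in wild-type GMP, against 3.16 to 4.27 in Mll-AF9 HSC and 3.09 to 4.35 in wild-type HSC. With it as a covariate 50 subunit genes were higher and 2 lower in Mll-AF9 GMP, and 56 and 5 in wild-type GMP. The part of the marker genes in the differences of the subunit genes was not tested.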

How the data were processed

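RNA of flow-sorted mouse bone marrow cells was amplified in 2 cycles and hybridised to Affymetrix arrays, per the labels' protocols. The authors deposited linear intensity values normalised by RMA, per the submitters' processing notes, for 45101 probe sets. The log2 of the deposited intensities was taken here, the 2 runs of 8 CMP replicates were averaged, and control probe sets and probe sets with several genes or none were left out, which left 34945 probe sets of 18193 genes. The number of arrays limits the precision. Probe sets were named from the platform annotation and updated to GRCm38.p6 symbols. Groups follow the array titles.

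Models were fitted with limma 3.58.1 in R 4.3.3 (lmFit and eBayes with an intensity trend), tested on simulated data. Benjamini-Hochberg adjustment was over all genes, with a threshold of 0.05. Genotypes were compared within a population, in a model of both its groups. Populations were compared within a genotype, in a model of all 4 groups of that genotype with a shared estimate of the spread. The difference of genotype effects was taken in a model of all 8 groups. The members and lists were chosen with earlier results of these data known. Genes named are those with tissue-specific or paralogous forms, the complex II genes, Cyc1 and Cycs, the called genes with the largest and smallest differences or otherwise the smallest p, the widest and narrowest range per complex, and up to 4 called genes per list; Ndufa9, Ndufs3, Ndufs7, Atp5pb and values given beside them were chosen after their values were seen. Same-numbered replicates were checked for pairing: the correlation of their deviations ran from -0.334 to 0.299, and in no comparison did all pairs exceed 0.1. All pairs were positive for wild-type GMP with wild-type HSC (0.036 to 0.161) and with wild-type CMP (0.041 to 0.201). This check cannot exclude that same-numbered samples shared mice, and the main models treated them as unpaired. Alternatives were other scalings, probe set summaries, filters, covariates, a replicate block, single CMP runs and leaving out each replicate.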

Additional observations from a re-analysis of the deposited data

Results flagged for a closer look

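For 12 subunit genes and for the mean over the 78 detected ones, 104 sets of 4 to 8 replicates were examined, and 8 held a replicate far from the others of its group, where chance gives about 1 in 20. Mll-AF9 CMP replicate 3 was low for Uqcr11 at 9.57 (the other replicates 10.53 to 10.66), Cox6b2 at 6.84 (7.91 to 8.03) and Cox4i1 at 11.4 (12.13 to 12.28). Mll-AF9 HSC replicate 2 was high for Ndufa5 at 9.51 (8.61 to 8.84) and low for Sdha at 9.7 (10.46 to 10.73). Mll-AF9 CLP replicate 3 was low for Uqcrq at 6.92 (7.67 to 8.2), and Mll-AF9 CLP replicate 1 was low for Atp5g1 at 6.74 (7.18 to 7.48). Wild-type CMP replicate 4 was high for Ndufa5 at 10.49 (10.16 to 10.24).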

How the results depend on the processing

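The absence of called subunit genes between Mll-AF9 and wild type held in GMP, CMP and HSC under all alternatives, and in CLP with 1 exception, Cox6a2, called lower with the mean over all probe sets, where the count lower was 1. Counts higher against HSC stayed within 1.5 times in Mll-AF9 GMP (46 to 52 without single replicates), wild-type GMP (50 to 57), Mll-AF9 CMP (40 to 57) and wild-type CMP (45 to 61). The counts lower in wild-type GMP were 1 with mean probe sets and 5 with the 3'-to-5' covariate (1 to 4 without single replicates, with 1 after leaving out wild-type GMP replicate 4 or 5 or wild-type HSC replicate 3 or 4), and in wild-type CMP 0 with mean probe sets. In Mll-AF9 GMP the count lower was 5 among detected genes only, after quantile normalisation again and after median centring, and 1 with mean probe sets (2 to 5 without single replicates, with 5 after leaving out Mll-AF9 HSC replicate 2). For wild-type CLP the count higher was 1 without the intensity trend, after quantile normalisation again, after median centring and with mean probe sets, and 0 in the model of 8 groups (0 to 5 without single replicates). For Mll-AF9 CLP it was 17 in the model of 8 groups, 4 with the replicate block and 0 with the 3'-to-5' covariate (2 to 23 higher and 0 to 1 lower without single replicates). The replicate block moved no other count by over 1.5 times. Between GMP and CMP, median centring gave 14 higher and 23 lower in wild-type and 3 higher in Mll-AF9 cells, and in Mll-AF9 cells mean probe sets and the model of 8 groups gave 14 higher each (4 to 10 without single replicates). With mean probe sets the sign turned for Sdha in wild-type GMP against HSC (0.0422) and for Ndufa12 in Mll-AF9 GMP against HSC (-0.0367) and in wild-type GMP against CMP (-0.25). The cause of these changes was not tested. Of the called genes with another detected probe set, 30 of 37 in Mll-AF9 GMP, 29 of 36 in wild-type GMP, 25 of 30 in Mll-AF9 CMP and 28 of 32 in wild-type CMP were called the same way by one and the opposite way by none. A detected probe set was called the opposite way for 2 genes in Mll-AF9 GMP (Ndufa12 and Ndufb2, each with another called the same way) and for 3 in wild-type GMP (these and Sdha).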
